A study of Mus musculus with 12 samples.

Results

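The 37 genes described here encode proteins that sense DNA damage, pass the signal on and repair the lesion, from the kinases Atm, Atr and Prkdc to the nucleotide excision repair genes Ercc1 to Ercc4. The rule that selects them is a list of gene names and uses no measured value, although the list was drawn up with earlier results of these data known. They are 37 of the 24452 gene symbols listed for every library, or 56 of 35840 transcripts. RNA was sequenced from the somatosensory cortex of male C57BL/6 mice on postnatal day 7, in 12 libraries, 3 for each of 4 groups: wild-type (WT) mice given saline, WT mice given ethanol, p53 knockout (KO) mice given saline and p53 KO mice given ethanol. The KO allele is Trp53tm1Tyj, a disruption of the gene for p53 in every cell of the body, and WT mice carried no engineered allele. Saline or ethanol was injected into the peritoneum on that day, and the cortex was taken 8 hours after the second injection. Some samples were cut by laser and others with a hole punch, and the labels do not say which library had which. They also do not say whether each library came from a separate mouse, so the p-values measure the spread between libraries.

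A break in both strands of DNA is bound by the MRN complex, made of Mre11a, Rad50 and Nbn, which calls in the kinase Atm, while Atr responds to stretches of unpaired DNA and Prkdc to ends held by the Ku proteins Xrcc5 and Xrcc6. The kinases act through mediators such as Mdc1, Topbp1 and Rif1 and through the checkpoint kinases Chek1 and Chek2, and p53 is among the proteins that Atm and Chek2 phosphorylate. Neurons that no longer divide rely on end joining and on single-strand break and excision repair, whereas homologous recombination is used by dividing cells. Much of the control of these proteins is by modification of the protein, which RNA levels do not show.

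The libraries were uneven, and 2 things about them touch every result below. Total counts ran from 719735 to 17066392, 23.7-fold, with the lowest totals in the libraries whose names open with L where all others open with P: WT saline replicate 3 (1953154) and KO ethanol replicate 12 (719735). In KO ethanol replicate 12, 10 of the 37 genes had 0 counts, and 3 counts, the limit that a count of 0 allows for counting error alone, stand for 5.01 CPM there (CPM, the count scaled to a common library size, here with the TMM factor of each library). The mean transcript length of a library, weighted by its counts, was 2223, 3269 and 2820 bases in WT saline replicates 1, 3 and 13, between 3351 and 3827 in WT ethanol, between 3647 and 3745 in KO saline, and 3612, 2585 and 3647 in KO ethanol replicates 10, 12 and 18. The genes described here were long, with a median transcript of 3873 bases against 2193 for all symbols, and the results are therefore also given by length class. Whole-gene counts of Trp53 do not check the genotype labels, because the targeted allele keeps part of the gene: Trp53 stood at 3.68 to 26.2 CPM in the 6 WT libraries and at 11.1 to 28.7 in the 6 KO libraries.

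Most of these genes were expressed at low levels. Compared per length, as RPKM, the highest medians over the 12 libraries were those of Ercc1 (21.0), Parp1 (14.4) and Ercc3 (12.5), which make a nuclease subunit, the sensor of strand breaks that builds poly(ADP-ribose), and a helicase of transcription factor IIH. The lowest were those of the homologous recombination genes Bard1 (0.194), Brca1 (0.317), Brca2 (0.361) and Palb2 (0.464) and of the Fanconi anemia gene Fanci (0.310). Among the apical kinases the RPKM medians were 2.24 for Atr, 1.35 for Atm and 1.30 for Prkdc, and their ranges over libraries overlapped (0 to 4.27, 1.02 to 1.95 and 1.05 to 1.86).

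Promoter sequences of 28 of the 37 genes were matched in RefSeq (GRCm38.p6, 31 entries, each with 250 bases before the start and 50 after it). Genes of this kind are known targets of the E2F factors, and the E2F letters TTTCGCGC, TTTGGCGC, TTTCCCGC and TTTGCCGC, read on both strands, occurred in 8 of the 31 entries (25.8%) against 2.26% of all 32851 entries. They were in the promoters of Mdc1, Topbp1, Chek2, Brca2, Bard1, Xrcc6 and Msh6 and in 1 of the 3 entries of Lig1. The letters GCGCATGC of the NRF1 factor, on both strands, occurred in 7 entries (22.6%) against 2.71% of all. The member entries were also richer in GC, with a median of 59.7% against 52.7% for all entries. The GC box letters GGGCGG, on both strands, occurred in 67.7% of them against 35.7% of all. The part of GC content in these shares was not tested. A p53 response element of 2 half-sites, with or without a short spacer between them, occurred in 0 of the 31 entries and in 24 of all entries (0.0731%). Of the 8 genes with the E2F letters, Topbp1 and Mdc1 were called in a comparison below and the others were not (2 of 8). Of the 20 matched genes without these letters 11 were called, Mre11a and Brca1 among them. The share of all genes called in any comparison, with or without the letters, was not counted, so nothing is read from this difference. The 6 promoters below show both kinds, with the E2F letters in capitals where they occur.
Topbp1, chr9:103305077-103305376, plus strand, letters present, called: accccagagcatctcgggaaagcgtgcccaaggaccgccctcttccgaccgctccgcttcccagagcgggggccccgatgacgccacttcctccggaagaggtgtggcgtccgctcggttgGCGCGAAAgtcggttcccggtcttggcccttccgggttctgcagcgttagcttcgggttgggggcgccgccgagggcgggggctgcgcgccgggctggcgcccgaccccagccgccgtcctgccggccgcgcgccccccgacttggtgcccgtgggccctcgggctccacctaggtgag
Mdc1, chr17:35841248-35841547, plus strand, letters present, called: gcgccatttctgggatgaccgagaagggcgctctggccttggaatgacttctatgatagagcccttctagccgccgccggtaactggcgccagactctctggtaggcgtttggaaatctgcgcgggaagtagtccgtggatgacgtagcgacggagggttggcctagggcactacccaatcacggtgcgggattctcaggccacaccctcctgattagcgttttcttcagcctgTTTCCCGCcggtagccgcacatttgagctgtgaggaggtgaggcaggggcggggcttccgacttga
Brca2, chr5:150522371-150522670, plus strand, letters present, not called: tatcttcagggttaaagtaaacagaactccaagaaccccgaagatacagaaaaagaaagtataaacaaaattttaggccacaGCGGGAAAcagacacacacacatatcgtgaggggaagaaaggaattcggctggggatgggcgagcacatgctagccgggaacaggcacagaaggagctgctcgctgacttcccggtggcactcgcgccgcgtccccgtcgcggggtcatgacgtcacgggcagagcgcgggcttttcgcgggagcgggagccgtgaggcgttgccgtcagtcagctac
Chek2, chr5:110839733-110840032, plus strand, letters present, not called: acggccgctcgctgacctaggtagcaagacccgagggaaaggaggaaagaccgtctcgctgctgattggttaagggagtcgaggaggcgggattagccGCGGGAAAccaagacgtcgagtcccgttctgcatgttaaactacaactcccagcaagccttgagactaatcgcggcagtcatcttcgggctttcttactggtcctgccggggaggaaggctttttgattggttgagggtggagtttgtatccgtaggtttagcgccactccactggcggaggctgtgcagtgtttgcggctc
Brca1, chr11:101551906-101552205, minus strand, letters absent, called: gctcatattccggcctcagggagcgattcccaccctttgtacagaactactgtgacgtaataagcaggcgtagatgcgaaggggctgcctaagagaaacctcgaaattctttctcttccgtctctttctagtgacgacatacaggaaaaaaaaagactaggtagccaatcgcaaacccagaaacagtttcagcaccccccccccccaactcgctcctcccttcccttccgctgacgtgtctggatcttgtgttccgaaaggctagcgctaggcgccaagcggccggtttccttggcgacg
Mre11a, chr9:14784404-14784703, plus strand, letters absent, called: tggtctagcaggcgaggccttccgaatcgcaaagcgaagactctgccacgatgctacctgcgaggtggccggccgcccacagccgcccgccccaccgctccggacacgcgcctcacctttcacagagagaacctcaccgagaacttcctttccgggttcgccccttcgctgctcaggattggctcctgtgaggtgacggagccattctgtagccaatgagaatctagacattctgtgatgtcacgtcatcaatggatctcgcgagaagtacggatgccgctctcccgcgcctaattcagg

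Ethanol in WT mice. The first comparison asked which genes ethanol changed in mice with p53. In WT mice 4 of the 37 genes rose and none fell after ethanol by edgeR's quasi-likelihood test at an adjusted p under 0.30: the MRN nuclease Mre11a, the recombination gene Brca1, and the mediators Rif1 and Topbp1. The share that rose was close to that of all 14739 genes tested, of which 12.1% rose and 10.4% fell. Scaled by library size without TMM factors, 14 rose and none fell, where 24.1% of all genes rose and 3.42% fell around an all-gene median log2 fold change of 0.49. Counting every gene, called or not, 30 of the 37 (81.1%) had a log2 fold change above 0, against 52.7% of all genes tested, and the median was 0.55 against 0.06. On the deposited RPKM, with limma and pseudocounts of 1 and 0.1, 20 and 21 of the 37 were above 0, with medians of 0.09 and 0.12 on the log2(RPKM + pseudocount) scale. The medians of all genes tested were 0.0111 and 0.0417 on that scale.

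Mre11a stood at 4.41, 6.68 and 5.42 CPM in WT saline replicates 1, 3 and 13 and at 12.4, 10.1 and 9.84 in WT ethanol replicates 4, 5 and 14. The groups did not overlap, and the log2 fold change was 0.99 ± 0.41 (SE, n = 3 and 3, adjusted p = 0.232 by edgeR). Brca1, which with Bard1 forms a ubiquitin ligase at breaks, had 5, 1 and 35 counts in WT saline (0.919, 0.514 and 2.60 CPM). WT saline replicate 3 was below the 1.54 CPM that 3 counts stand for there. After ethanol Brca1 reached 6.74, 2.78 and 5.45 CPM. These groups also did not overlap, by a small margin at 2.60 and 2.78, and the log2 fold change was 1.70 ± 0.70 (adjusted p = 0.235 by edgeR). Rif1, which protects broken ends from resection, was at 14.0, 2.57 and 6.02 CPM in WT saline and at 25.7, 18.5 and 19.2 after ethanol, a log2 fold change of 1.44 ± 0.60 (adjusted p = 0.236 by edgeR). Topbp1, the activator of Atr, was at 26.1, 20.6 and 17.1 CPM in WT saline and at 31.5, 27.8 and 49.0 after ethanol, a log2 fold change of 0.76 ± 0.35 (adjusted p = 0.261 by edgeR). All WT ethanol libraries were above all WT saline libraries for both genes.

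The groups were apart in 11 of the 37 genes, 10 of them with the WT ethanol libraries higher, where 11.3% of all genes tested were apart upward and 8.3% downward. The 6 upward genes that missed the call were Atr, Atm, Prkdc, Fancm, Rad17 and Blm. Atr was at 10.7, 16.4 and 6.46 CPM in WT saline and at 20.6, 18.9 and 39.7 after ethanol, with its highest value in replicate 14 (log2 fold change 1.27 ± 0.66). Atm was at 16.7, 10.3 and 11.8 and at 18.9, 18.1 and 24.1 (0.64 ± 0.38), and Prkdc at 13.8, 11.3 and 16.04 and at 24.1, 17.1 and 17.7 (0.51 ± 0.34). The downward gene was Ercc1, which cuts DNA beside a lesion together with Ercc4, at 27.9, 39.1 and 27.1 CPM in WT saline and 14.2, 16.2 and 26.7 after ethanol (-0.72 ± 0.39).

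The other members described in full overlapped between the groups. The checkpoint kinase Chek1 was at 5.51, 4.63 and 2.45 CPM in WT saline and 1.98, 2.22 and 3.34 after ethanol (log2 fold change -0.73 ± 0.60), and Chek2 at 2.94, 3.09 and 1.71 and at 5.04, 1.48 and 2.64 (0.31 ± 0.67). Brca2 was at 3.86, 6.68 and 2.15 and at 5.66, 2.69 and 5.09 (0.17 ± 0.63). Rbbp8, which starts end resection, had its highest value of the 6 in WT saline replicate 3, with 6.62, 20.6 and 5.35 in WT saline and 10.6, 10.0 and 12.7 after ethanol (0.10 ± 0.52). Parp1 was at 38.0, 62.7 and 40.6 and at 53, 51.1 and 66.4 (0.28 ± 0.35), and the Ku gene Xrcc6 at 18.0, 30.3 and 11.1 and at 10.3, 10.7 and 26 (-0.32 ± 0.45). None of the 37 reached an adjusted p of 0.05, which 0.0746% of all genes did by edgeR, and 4 (10.8%) had an unadjusted p under 0.05, against 18.3% of all genes. DESeq2 called 0 members at 0.05, where it called 3.33% of all genes, and at 0.30 it called 11 higher and 1 lower, where 14.5% of all genes were higher and 13.5% lower.

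By role, the called genes were 1 of 3 in the MRN complex, 2 of 5 mediators and clamp genes and 1 of 7 recombination and helicase genes, with 0 of 3 apical kinases, 0 of 2 checkpoint kinases, 0 of 3 Fanconi anemia genes, 0 of 4 end joining genes, 0 of 5 base excision genes, 0 of 4 nucleotide excision genes and the mismatch gene Msh6 not called. Of 71 other repair and damage signaling genes tested, 10 rose and 6 fell, with a median log2 fold change of -0.01, and of 19 p53 target genes of the damage response 3 rose and 1 fell. The count for the 37 depended on single libraries, and so did the share of all genes called, which was 22.5% in both directions with every library. Without WT saline replicate 1, WT ethanol replicate 4, WT ethanol replicate 14 or KO saline replicate 9 the count was 0, where 1.3%, 0.476%, 5.54% and 12.6% of all genes were called. It was 1 without WT saline replicate 13 (14.2% of all genes), 2 without KO ethanol replicate 10 (14.8%), 7 without WT ethanol replicate 5 (20.4%), 15 without KO ethanol replicate 12 (31.6%) and 19 without WT saline replicate 3 (48.7%).

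**Figure D1:**
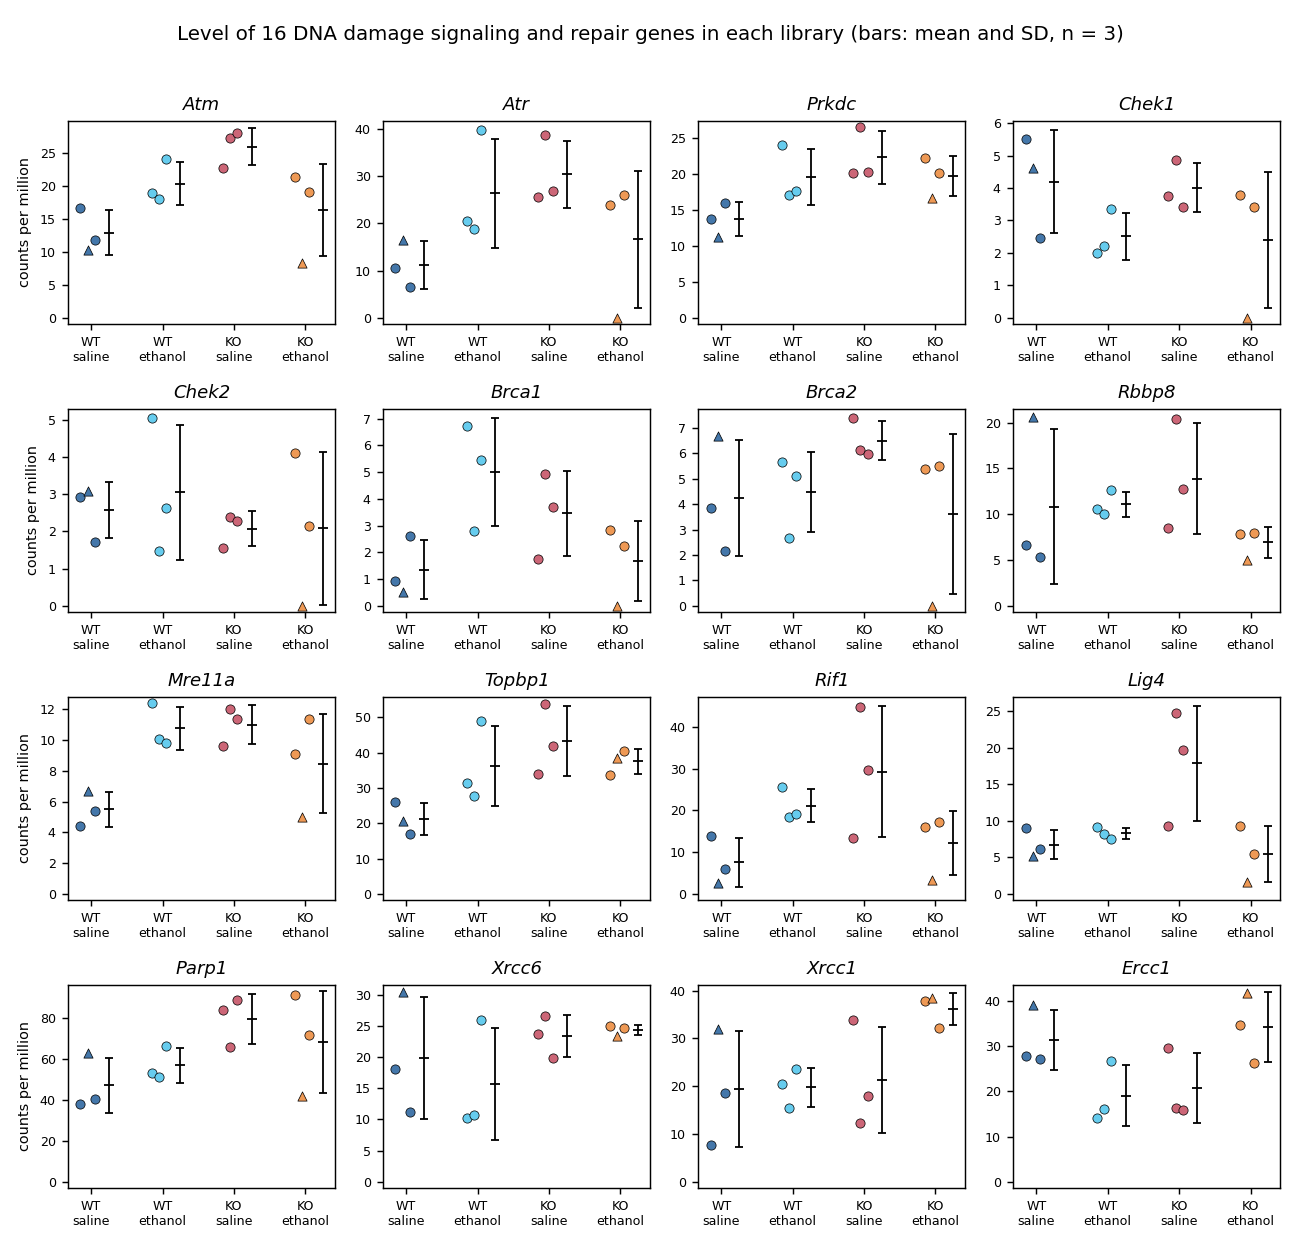
Each panel gives 1 gene in CPM (vertical axis, linear) in the 12 libraries, with triangles for the 2 libraries whose names open with L and bars for the group mean and SD (n = 3). The 3 WT saline libraries lie below all WT ethanol and all KO saline libraries for Mre11a, Topbp1, Atm, Atr and Prkdc, and KO ethanol replicate 12 is at 0 for Atr, Chek1, Chek2, Brca1 and Brca2.

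KO and WT mice under saline. Without ethanol, 14 of the 37 genes (37.8%) rose in KO relative to WT mice and none fell, where 12.4% of all genes tested rose and 13.4% fell. All 3 apical kinases were among them, with 1 of 3 MRN genes (Mre11a), 3 of 5 mediators (Rif1, Topbp1 and Mdc1), 2 of 3 Fanconi anemia genes (Fancd2 and Fancm), 3 of 5 base excision genes (Parp1, Parp2 and Lig3), 1 of 4 end joining genes (Lig4) and 1 of 4 nucleotide excision genes (Ercc4). The checkpoint kinases, the 7 recombination and helicase genes and Msh6 were not called. Scaled by library size without TMM factors, 22 rose and none fell, where 22.9% of all genes rose and 4.61% fell around an all-gene median of 0.49 on the log2 scale. The median log2 fold change of the 37 was 0.83 against 0.04 for all genes tested, and 29 of the 37 (78.4%) were above 0, against 52% of all genes. On the deposited RPKM, with pseudocounts of 1 and 0.1, 28 and 29 of the 37 were above 0. Their medians were 0.22 and 0.33 on that scale, against 0.0072 and 0.0437 for all genes tested. Limma called 0 members at either pseudocount, where it called 2.84% and 1.74% of all genes. This comparison used the same WT saline libraries as the one before it, so a low value in those libraries enters both.

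Rif1 had the smallest p. It was at 14.0, 2.57 and 6.02 CPM in WT saline replicates 1, 3 and 13 and at 13.4, 44.8 and 29.6 in KO saline replicates 7, 8 and 9 (log2 fold change 1.91 ± 0.61, adjusted p = 0.176 by edgeR). The groups overlapped, because KO saline replicate 7 was just below WT saline replicate 1. Topbp1 was at 34.0, 53.8 and 41.9 CPM in KO saline against 17.1 to 26.1 in WT saline (1.03 ± 0.35, adjusted p = 0.177 by edgeR). Lig4, the ligase that seals ends in end joining, was at 9.00, 5.14 and 6.09 in WT saline and at 9.29, 24.7 and 19.7 in KO saline (1.39 ± 0.50, adjusted p = 0.185 by edgeR). The 3 KO libraries were higher than all WT saline libraries for Topbp1 and Lig4, for Lig4 by a small margin in replicate 7.

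Among the apical kinases, Atm was at 22.7, 27.2 and 28.0 CPM in KO saline, above the highest WT saline value of 16.7 (log2 fold change 1.00 ± 0.38, adjusted p = 0.195 by edgeR). Atr was at 25.7, 38.7 and 26.8 against at most 16.4 in WT saline (1.48 ± 0.66, adjusted p = 0.242 by edgeR), and Prkdc at 20.2, 26.7 and 20.3 against at most 16.04 (0.69 ± 0.34, adjusted p = 0.270 by edgeR). None of the 3 kinases overlapped between the groups. Parp1 was at 84.1, 65.9 and 89.0 in KO saline, of which replicate 8 was close to WT saline replicate 3 at 62.7 (0.76 ± 0.35, adjusted p = 0.247 by edgeR). Mre11a was at 9.59, 12.1 and 11.4 against 4.41 to 6.68 (1.02 ± 0.41, adjusted p = 0.203 by edgeR). The other called genes had log2 fold changes from 0.83 (Lig3) to 1.30 (Mdc1), with adjusted p-values of 0.252 to 0.284 by edgeR. For Ercc4 the lowest KO library (16.2) was just below the highest WT saline library (16.4).

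Of the genes not called, Brca1 was at 1.77, 4.92 and 3.69 CPM in KO saline (log2 fold change 1.17 ± 0.70) and Brca2 at 7.38, 6.15 and 5.97 (0.70 ± 0.63). Chek1 was at 3.76, 4.86 and 3.42 (-0.03 ± 0.59), and Chek2 at 1.55, 2.40 and 2.28 (-0.26 ± 0.67). Rbbp8 was at 8.48, 20.4 and 12.7 (0.42 ± 0.52), and Xrcc6 at 23.7, 26.6 and 19.8 (0.26 ± 0.45). All 6 of these genes overlapped between KO and WT saline. In 15 of the 37 genes the groups were apart, each with KO higher, where 12.9% of all genes tested were apart upward and 10% downward. No member reached an adjusted p of 0.05, which 0.0543% of all genes did, 8 (21.6%) had an unadjusted p under 0.05 against 19.6% of all genes, and DESeq2 called 1 (2.7%) at 0.05 against 4.99% of all genes.

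Of the 71 other repair and damage signaling genes, 15 rose and 9 fell, with a median log2 fold change of -0.0027. Of the 19 p53 target genes, 5 rose and 1 fell. With every library 25.8% of all genes were called in either direction. The count of 14 for the genes described here was 0 without WT saline replicate 1, KO saline replicate 8 or KO saline replicate 9, where 0.246%, 0.0599% and 0.0599% of all genes were called. It was 2 without WT saline replicate 13 (13.7% of all genes), 3 without KO saline replicate 7 (9.57%), 7 without KO ethanol replicate 18 (20.4%), 8 without KO ethanol replicate 10 (18.8%), 9 without WT ethanol replicate 5 (21.2%) and 23 without WT saline replicate 3 (50.4%). Among genes that were not called, Rad9a, a subunit of the checkpoint clamp, was at 13.3, 6.56 and 6.67 CPM in KO saline and 5.70, 14.4 and 7.73 in WT saline.

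**Figure D2:**
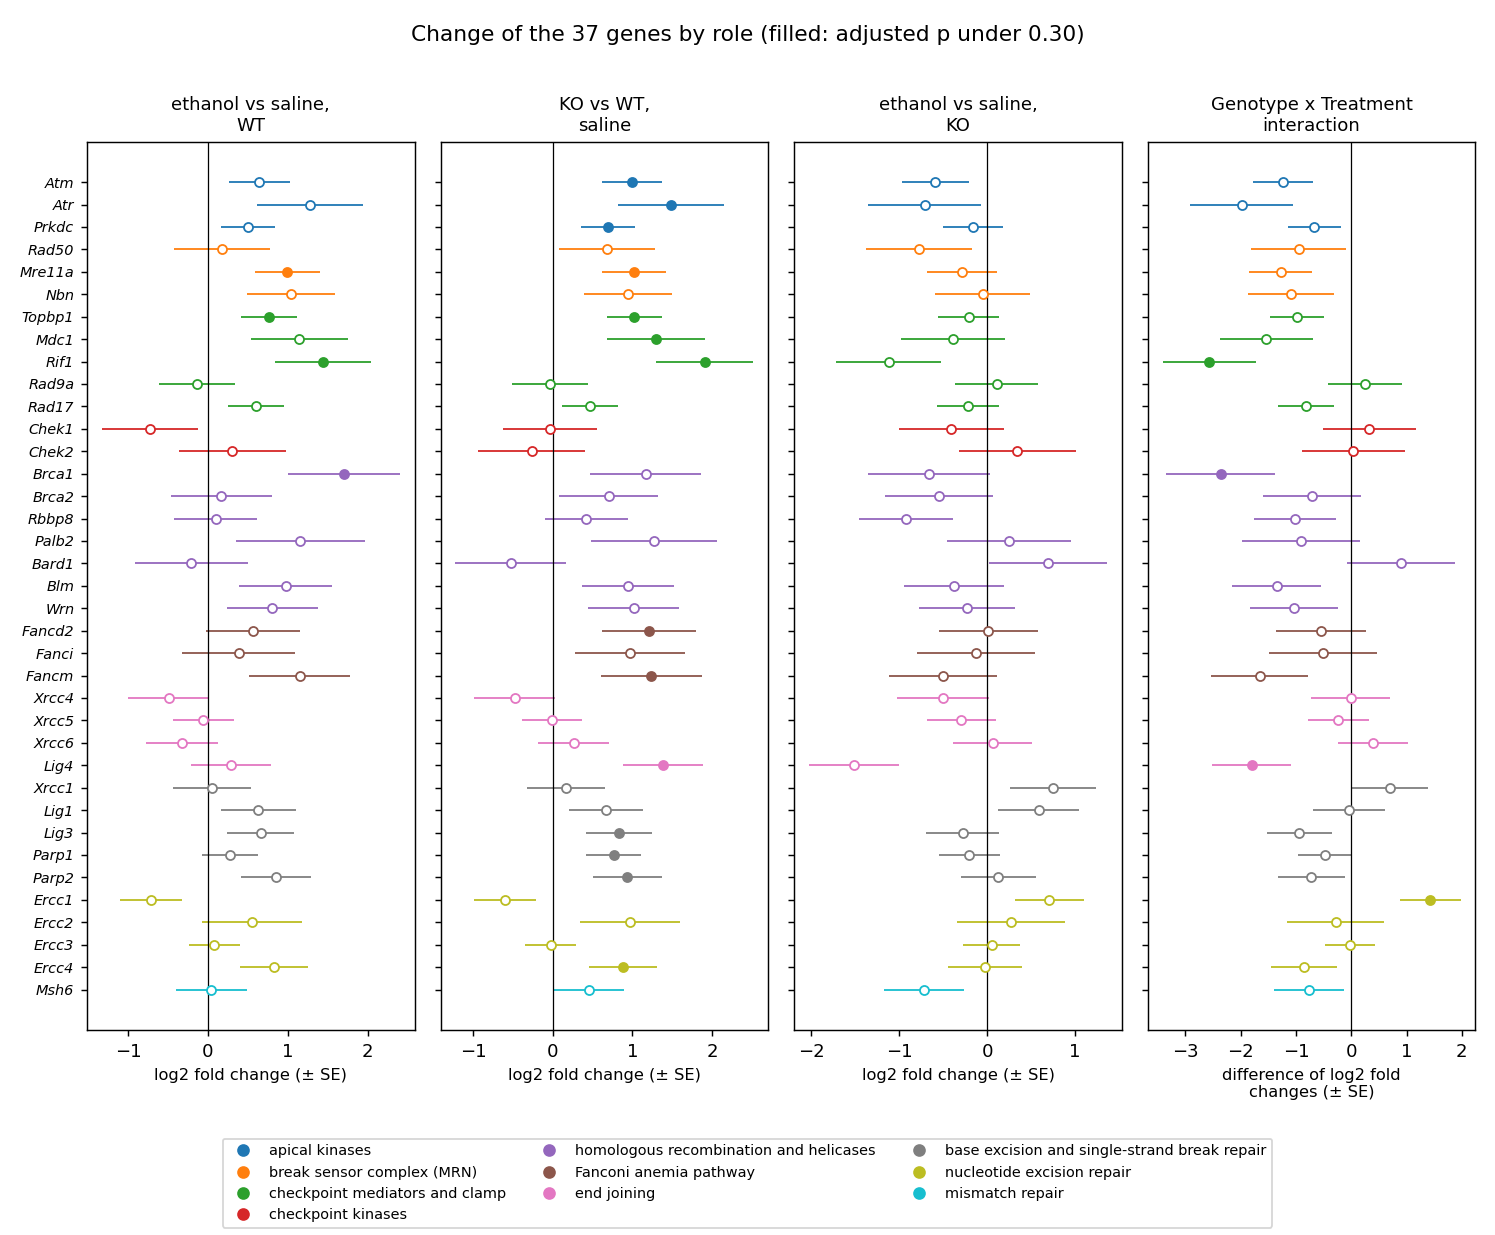
Log2 fold change with its SE (horizontal axis) of the 37 genes, grouped by role, in 4 comparisons, with filled points for an adjusted p under 0.30. In KO against WT mice under saline 14 points are filled, all above 0, against 4 for ethanol in WT mice and 0 for ethanol in KO mice.

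Transcript length. The changes followed transcript length, for these genes and for all genes. Of the 9 members with transcripts of 6000 bases or more, 6 (66.7%) rose in KO relative to WT mice under saline, where 33.2% of the 1695 genes of that length rose. From 4000 to 6000 bases the shares were 4 of 9 (44.4%) and 19.8%, from 2500 to 4000 bases 3 of 11 (27.3%) and 10.7%, from 1500 to 2500 bases 1 of 7 (14.3%) and 4.67%, and the 1 shorter member, Ercc1, was not called, where 47.7% of genes of that length fell. For ethanol in WT mice 2 of the 9 longest members rose (22.2%) against 28.1% of the genes of that length. Across genes, which are not independent replicates, Spearman's rho between the log2 fold change and length was 0.63 over the 37 members and 0.54 over 14581 genes in KO against WT saline, 0.46 and 0.48 for ethanol in WT mice, and -0.51 and -0.47 for ethanol in KO mice.

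After the length and GC trends were taken out of every library, 1 member was called in KO against WT mice under saline (Rif1, log2 fold change 1.02, adjusted p = 0.287 by edgeR) and 0 for ethanol in WT mice, where 2 and 0 had an unadjusted p under 0.05. Of all genes 8.28% and 13.2% were then called in either direction. The median log2 fold change of the members was 0.32 and 0.02, against -0.18 and -0.19 for all genes. Prkdc, with the longest transcript of the members (12647 bases), changed sign in KO against WT saline, from 0.69 to -0.31, and for ethanol in WT mice, from 0.51 to -0.46, where Atm also went from 0.64 to -0.18. In KO against WT saline Mre11a (3286 bases) kept 0.70 of 1.02 and Parp2 (1894 bases), which like Parp1 marks strand breaks, stood at 0.99 after 0.93.

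The libraries whose names open with L weighed the other way. Leaving both out kept only replicates 1 and 13 in WT saline and replicates 10 and 18 in KO ethanol. Those WT saline replicates had mean transcript lengths of 2223 and 2820 bases, the shortest of that group. Without both L libraries, 23 of the 37 genes (62.2%) rose and 1 fell in KO against WT mice under saline, where 28.6% of all genes rose and 27.7% fell. For ethanol in WT mice 20 (54.1%) rose and 2 fell, where 28.8% of all genes rose and 26.6% fell. At an adjusted p under 0.05 by edgeR there were then 10 members in KO against WT saline (Mdc1, Atr, Wrn, Nbn, Fancm, Ercc2, Parp1, Lig3, Ercc4 and Mre11a) and 5 for ethanol in WT mice (Mdc1, Nbn, Atr, Wrn and Fancm). These were 27% and 13.5% of the members, against 25.3% and 21.5% of all genes. With the length and GC trends removed as well, a combination chosen after seeing the data, 19 members rose and 1 fell in KO against WT saline, and 14 rose and 2 fell for ethanol in WT mice. Of all genes 23% rose and 31.3% fell, and 22.6% rose and 30.9% fell, and at an adjusted p under 0.05 there were 6 members (16.2%) against 23.2% of all genes and 3 members (8.11%) against 21.5%. Nbn, the MRN subunit that binds Atm, had a log2 fold change of 1.93 (adjusted p = 0.00548 by edgeR) and 2.06 (adjusted p = 0.00561 by edgeR) in the 2 comparisons under that combination, Parp2 1.503 and 1.327 (adjusted p = 0.0137 and 0.0238 by edgeR), and Mre11a 0.94 and 0.91 (adjusted p = 0.0423 and 0.0490 by edgeR). In WT saline Nbn was at 26.2 CPM in replicate 3, an L library, and at 10.3 and 4.31 in replicates 1 and 13.

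**Figure D3:**
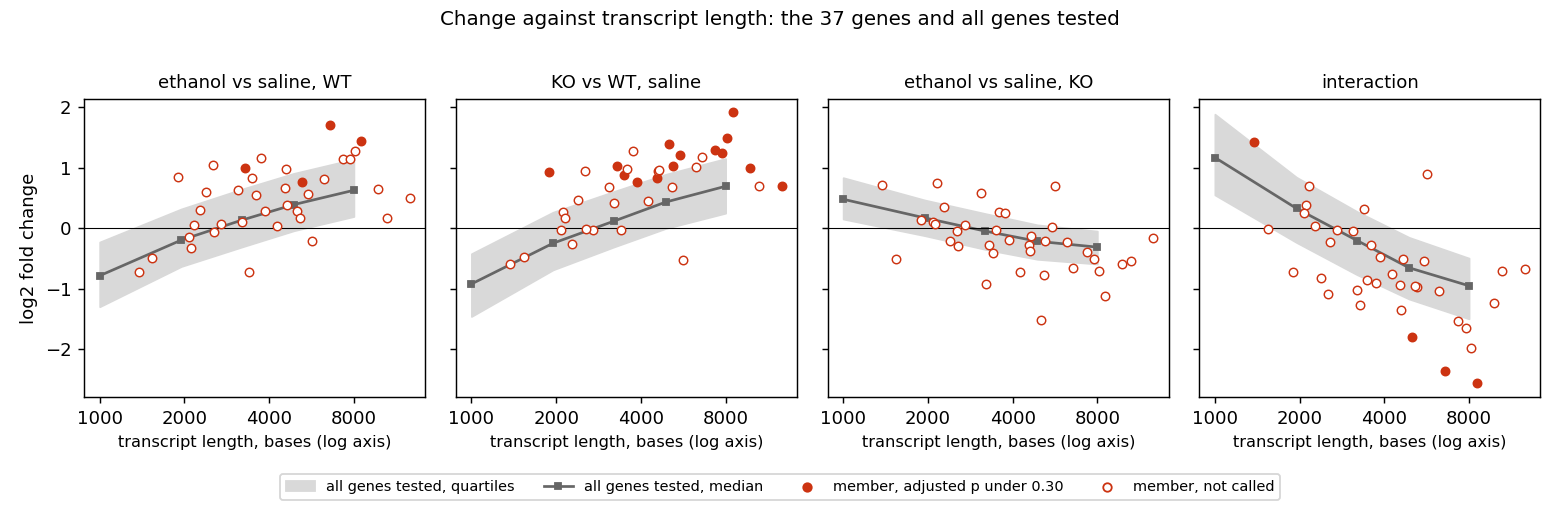
Log2 fold change (vertical axis) against transcript length (horizontal, log axis) for the 37 genes (points, filled at an adjusted p under 0.30) and, as the median and quartiles of 5 length classes, for all genes tested. Longer genes lie higher in the first 2 panels, rho 0.46 and 0.63 over the members, and lower in the others.

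Ethanol in KO mice. This comparison asked which genes ethanol changed in mice that lack p53. None of the 37 genes was called, and 0% of all genes tested rose and 0% fell by edgeR. At an adjusted p of 0.05 the share was also 0%. At an unadjusted p under 0.05 there was 1 member, Lig4, where 3.15% of all genes passed by edgeR. DESeq2 also called 0 members, where it called 0.0205% of all genes, and had 1 at an unadjusted p under 0.05. Lig4 was at 9.24, 1.67 and 5.46 CPM in KO ethanol replicates 10, 12 and 18 and at 9.29, 24.7 and 19.7 in KO saline (log2 fold change -1.52 ± 0.51, adjusted p = 0.999 by edgeR). The value in replicate 12 was 1 count, below the 5.01 CPM that 3 counts stand for there. The groups were apart only because KO saline replicate 7 was higher than KO ethanol replicate 10 by 9.29 to 9.24. The median log2 fold change of the members was -0.22 against 0.01 for all genes, and 12 of 37 (32.4%) were above 0 against 50.7%. With the length and GC trends removed, 20 of the 37 were above 0, with a median of 0.03 against 0.17 for all genes.

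Rif1 was at 15.95, 3.34 and 17.3 CPM after ethanol in KO mice (log2 fold change -1.12 ± 0.59) and Ercc1 at 34.7, 41.8 and 26.4 (0.71 ± 0.39), both overlapping with KO saline. The 3.34 of Rif1, in replicate 12, was 2 counts, also below the 5.01 CPM that 3 counts stand for there. Atm was at 21.4, 8.36 and 19.2, all below the lowest KO saline library at 22.7 (-0.59 ± 0.38). Atr was at 23.8, 0 and 26.1, Prkdc at 22.3, 16.7 and 20.2, and Parp1 at 91.3, 41.8 and 71.6, with the lowest value of each in replicate 12. Chek1 was at 3.79, 0 and 3.43, Chek2 at 4.11, 0 and 2.16, Brca1 at 2.84, 0 and 2.22 and Brca2 at 5.37, 0 and 5.52. For Chek1, Chek2 and Brca1 the other KO ethanol libraries were below the 5.01 that 3 counts stand for in replicate 12, so a lower level there was not detectable at this depth, whereas Atr was well above it in both. Rbbp8 was at 7.90, 5.01 and 7.93, below all KO saline libraries (-0.92 ± 0.53), and Xrcc6 at 24.95, 23.4 and 24.7 (0.06 ± 0.45). In 4 of the 37 genes (Lig4, Rbbp8, Atm and Brca2) KO ethanol lay below KO saline without overlap and in 0 above it, where 6.87% of all genes were apart downward and 3.89% upward.

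Some of the spread in KO mice ran across the treatments. KO saline replicate 7 was closer to KO ethanol replicates 10 and 18 than to KO saline replicates 8 and 9 in several members. Ercc2, a helicase of transcription factor IIH, was at 63.4 CPM in KO saline replicate 7 and 62.0 and 65.5 in KO ethanol replicates 10 and 18, but at 22.02 and 32.5 in KO saline replicates 8 and 9. Xrcc1, the scaffold of single-strand break repair, was at 33.8, 37.7 and 32.2 in the first 3 and at 12.4 and 17.9 in the others. Msh6 ran the other way, at 16.9, 17.8 and 15.9 against 30.7 and 21.7. The most abundant transcript symbol was Meg3 in those 3 libraries and Eef1a1 in KO saline replicates 8 and 9, and the part of this difference in the results was not tested.

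KO and WT mice after ethanol. None of the 37 genes was called, 0% of all genes tested rose and 0% fell by edgeR, and 0 members had an unadjusted p under 0.05 where 3.24% of all genes did. DESeq2 called 0 members, where it called 0.0205% of all genes, and had 1 member at an unadjusted p under 0.05. The members with the smallest p were Ercc1 (log2 fold change 0.83 ± 0.39), Xrcc1 (0.87 ± 0.49) and Brca1 (-1.19 ± 0.70), each with an adjusted p of 0.982 by edgeR. Xrcc1 was at 37.7, 38.5 and 32.2 CPM in KO ethanol and 20.4, 15.4 and 23.5 in WT ethanol, without overlap. Brca1 reached 2.84 in KO ethanol replicate 10, just above the 2.78 of WT ethanol replicate 5, so these groups overlapped. In 1 gene (Xrcc1) KO was higher without overlap and in 2 (Rbbp8 and Rif1) lower, where 4.04% of all genes were apart upward and 8.69% downward. The log2 fold changes of the kinases were -0.23 ± 0.38 for Atm, -0.50 ± 0.64 for Atr and 0.03 ± 0.34 for Prkdc. The median of the 37 was -0.05 against -0.03 for all genes.

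Genotype x Treatment interaction. The difference between the ethanol effect in KO and in WT mice was tested directly. It passed the call for 4 of the 37 genes, 1 upward (Ercc1) and 3 downward (Rif1, Lig4 and Brca1), where 5.64% of all genes were called upward and 5.43% downward. Without TMM factors 0 were called upward and 6 downward, where the shares of all genes were 2.52% and 11.1% around a median of -0.52. For Rif1 the effect was 1.44 in WT and -1.12 in KO mice on the log2 scale, a difference of -2.56 ± 0.85 (adjusted p = 0.250 by edgeR). For Brca1 the effects were 1.70 and -0.66 (-2.36 ± 0.99, adjusted p = 0.295 by edgeR), and for Lig4 0.29 and -1.52 (-1.80 ± 0.71, adjusted p = 0.278 by edgeR). Ercc1 ran opposite, -0.72 in WT and 0.71 in KO mice (1.43 ± 0.55, adjusted p = 0.271 by edgeR). Of the effects within a genotype, Rif1 and Brca1 in WT mice were called and the rest were not. In KO ethanol replicate 12, Rif1, Lig4 and Brca1 had 2, 1 and 0 counts, fewer than the 3 of the limit given above.

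The interaction was below 0 for 30 of the 37 genes and above 0 for 7 (18.9%), where 45.8% of all genes tested were above 0. The median was -0.76 against -0.11 for all genes tested. Spearman's rho with length was -0.60 over the members and over all genes. Unadjusted p-values were under 0.05 for 7 members, where 15.2% of all genes passed, and Atm (-1.23 ± 0.54), Mre11a (-1.27 ± 0.57) and Atr (-1.98 ± 0.92) were those not called. At an adjusted p of 0.05 there were 0 members and 0% of all genes by edgeR. By DESeq2 there were 0 of the 33 members with an adjusted p, where 2.01% of all genes passed. With the length and GC trends removed, 20 of the 37 were above 0, but the median of all genes also moved up. The median of the members was 0.07, still below the 0.31 of all genes. In that fit 0 members and 0.165% of all genes were called. Without both L libraries 1 member was called upward and 12 downward, where 12.5% of all genes were called upward and 16.3% downward. The count of 4 was 0 without WT saline replicate 1, WT ethanol replicate 4 or 14, KO saline replicate 8 or 9 or KO ethanol replicate 12, where 0% to 0.745% of all genes were called. It was 1 without WT saline replicate 13 (7.59% of all genes) or WT ethanol replicate 5 (4.89%), 2 without KO ethanol replicate 10 (7.48%) or 18 (11.4%), and 16 without WT saline replicate 3 (33.8%).

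Single transcripts. RefSeq listed 1 transcript for 27 of the genes and several for 10, and 51 of the 56 member transcripts could be tested. The authors' estimates divided counts among the transcripts of a gene, so shares between overlapping transcripts rest on few reads. By edgeR on transcripts 6 rose and 1 fell after ethanol in WT mice, 11 rose and 1 fell in KO against WT mice under saline, 0 were called in the other 2 contrasts of groups, and 1 was called upward and 3 downward in the interaction. These were 13.7%, 23.5% and 7.84% of the member transcripts, against 21.5%, 23.8% and 12.1% of all 21715 transcripts tested. For Rbbp8, whose summed level was called in no contrast, the transcript NM_001081223 was at 2.27, 1.54 and 1.00 CPM in WT saline, 6.65, 4.69 and 3.71 in WT ethanol, 3.09, 11.1 and 9.72 in KO saline, and 0.158, 0 and 0.882 in KO ethanol. It rose in KO against WT mice under saline (log2 fold change 2.33 ± 0.76, adjusted p = 0.162 by edgeR) and after ethanol in WT mice (1.67 ± 0.75, adjusted p = 0.260 by edgeR), and its interaction was -5.65 ± 1.14 (adjusted p = 0.150 by edgeR). The noncoding Rbbp8 transcript NR_045527 fell in KO against WT saline (-2.68 ± 1.17, adjusted p = 0.241 by edgeR), and it was at 13.3 in WT saline replicate 3 beside 1.70 and 0.615 in the others.

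Both transcripts of Mre11a were called, each in 1 contrast. NM_001310728 was at 0.378, 4.61 and 0.308 CPM in WT saline and 8.22, 3.04 and 6.53 in WT ethanol (log2 fold change 2.06 ± 0.95, adjusted p = 0.272 by edgeR), groups that overlapped. NM_018736 was at 4.16, 2.05 and 5.31 in WT saline and 8.45, 10.6 and 10.1 in KO saline (1.28 ± 0.58, adjusted p = 0.255 by edgeR), without overlap. The estimated share of NM_001310728 was the same 66.67% in WT saline replicate 3, WT ethanol replicates 4 and 14 and KO ethanol replicate 12, a fixed division of the counts, so nothing is read from which transcript was ahead. The Palb2 transcript NM_001081238 had 0 counts in all 3 WT saline libraries and 0, 0.460 and 1.94 CPM in WT ethanol, so its call rests on few reads.

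**Figure D4:**
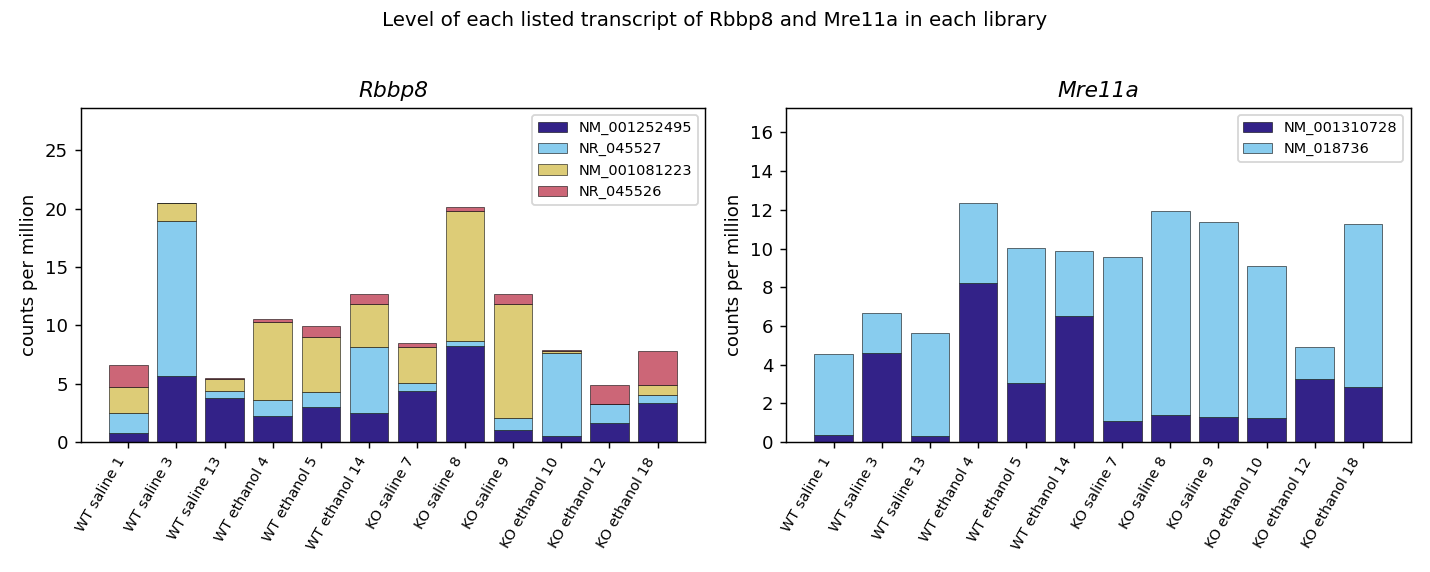
Stacked bars give CPM (vertical axis, from 0) of each listed transcript of Rbbp8 and Mre11a in the 12 libraries. NM_001081223 of Rbbp8 is large in KO saline replicates 8 and 9 (11.1 and 9.72) and small in the 3 KO ethanol libraries (0 to 0.882).

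Levels of cell type markers, as summed RPKM of lists, varied within groups as well as between them. In bulk tissue fewer cells of a type and less RNA per cell cannot be told apart. The 10 cycling cell genes summed to 55.6 to 180 in WT saline, 74.95 to 103 in WT ethanol, 65.1 to 146 in KO saline and 61.5 to 76.0 in KO ethanol, with Bub1 at 0 in 2 libraries and Mcm2 in 1, and 2 of the 10 fell after ethanol in WT mice, while 2 rose and 2 fell in KO against WT mice under saline. The 6 microglia genes summed to 38.1 to 212 in WT saline, 55.8 to 106 in WT ethanol, 49.8 to 94.6 in KO saline and 57.9 to 109 in KO ethanol, and 3 of the 6 fell in both contrasts against WT saline. The 5 neuronal genes, all detected in every library, summed to 1198 to 3309 in WT saline, 2989 to 3892 in WT ethanol, 4223 to 4547 in KO saline and 2232 to 4076 in KO ethanol. The 4 choroid plexus genes summed to 11.8, 3.44 and 65.6 in WT saline replicates 1, 3 and 13. They summed to 5395, 14.5 and 45.3 in WT ethanol replicates 4, 5 and 14, so WT saline replicate 13 was above WT ethanol replicates 5 and 14. Their sums were 471.5, 17.75 and 3106 in KO saline replicates 7, 8 and 9. In KO ethanol replicates 10, 12 and 18 they were 263.1, 0 and 3465. In the neuronal list 1 gene fell in each contrast against WT saline, and 3 and 2 of the 4 choroid plexus genes rose after ethanol in WT mice and in KO mice under saline. Of 6 projection neuron, 4 interneuron, 5 astrocyte, 6 oligodendrocyte lineage and 5 endothelial genes, 0, 2, 0, 1 and 2 rose after ethanol in WT mice, 1, 1, 0, 2 and 2 rose in KO against WT mice under saline, and none fell. The part of these shifts in the changes of the repair genes was not tested.

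The summed level of the 37 genes shows how far libraries of a group stood apart. It was 242, 591 and 346 CPM, here of the deposited total without TMM scaling, in WT saline replicates 1, 3 and 13, 703, 523 and 846 in WT ethanol replicates 4, 5 and 14, 857, 792 and 770 in KO saline replicates 7, 8 and 9, and 927, 352 and 880 in KO ethanol replicates 10, 12 and 18. The 3 KO saline libraries were within a narrow range above all WT saline libraries, whereas WT saline and WT ethanol overlapped at replicates 3 and 5.

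**Figure D5:**
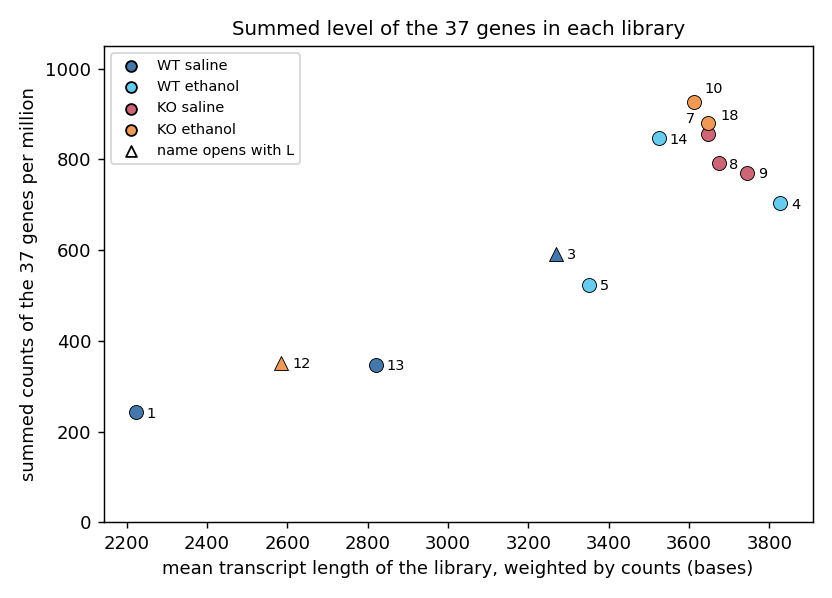
Summed level of the 37 genes in CPM (vertical axis) against the count-weighted mean transcript length of each library (horizontal axis, bases), with the replicate number beside each point and triangles for the libraries whose names open with L. The libraries with the shortest mean transcripts, WT saline replicates 1 and 13 and KO ethanol replicate 12, hold the lowest sums (242, 346 and 352).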

How the data were processed

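Stranded RNA-seq libraries were analysed from 12 samples, 3 per group. The authors removed reads of low quality, aligned the rest with Bowtie2 within TopHat to mm10, and quantified RefSeq transcripts in Partek Flow, and the deposited tables give estimated counts and RPKM for each transcript. These estimated counts were rounded after summing per gene symbol. Symbols with low counts were left out by edgeR's filter, which left 14739 symbols (60.28% of those listed) and all 37 members. A generalized linear model with the 4 groups was fitted to all libraries in edgeR 4.0.16 (R 4.3.3) with TMM factors, tested by quasi-likelihood with Benjamini-Hochberg adjustment over all symbols, and called at an adjusted p under 0.3. Alternatives used DESeq2 1.42.0, limma 3.58.1 on log2(RPKM + 1) and log2(RPKM + 0.1), other scalings and filters (at least 1 count in any library, or 10 in every library), offsets that removed spline trends (5 degrees of freedom) with length and GC content, and omission of libraries. On simulated data for ethanol in WT mice, run on 14600 genes, 100 genes were changed by 1 and 100 by 2 on the log2 scale. These were drawn from genes above 5 CPM on average, and 10% and 65% of them were recovered. All other genes were left unchanged and no length trend was simulated. Recovery was therefore not measured for members at lower levels. The members and gene lists were chosen with earlier results of these data known. Full values were given for Atm, Atr, Prkdc, Chek1, Chek2, Brca1, Brca2, Rbbp8, Parp1, Xrcc6 and the 3 members with the smallest p in each contrast. Other members and single transcripts were named after their values were seen. Coordinates are those of the deposited tables and of RefSeq on GRCm38.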

Additional observations from a re-analysis of the deposited data

Results flagged for a closer look

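By the Genotype x Treatment interaction in edgeR, the ethanol effect differed between KO and WT mice for 4 of the 37 genes. The call was an adjusted p under 0.30, which 11.1% of all genes tested passed, a share close to that of the members. Leaving out 1 library at a time gave 0 to 16 members, and 0 were called with the library letter as a covariate. The difference, KO minus WT on the log2 scale, was -2.562 for Rif1, 1.426 for Ercc1, -1.802 for Lig4 and -2.359 for Brca1. With the length and GC trends removed, where 0.165% of all genes were called, none of the 4 was called and all 4 kept their sign, at -1.059, 1.007, -0.718 and -1.146 in the same order. The part of transcript length and of single libraries in these differences was not tested beyond those counts. Groups of 3 libraries were too small to be searched for outlying samples.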

How the results depend on the processing

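Counts of called members, given for ethanol in WT mice, KO against WT mice under saline and the interaction in that order, were 4, 14 and 4, where 22.5%, 25.8% and 11.1% of all genes were called. With DESeq2 they were 12, 16 and 8 (33 members had an adjusted p in the interaction, and 28%, 30.4% and 21.1% of all genes were called), without TMM 14, 22 and 6 (27.5%, 27.5% and 13.6%), with at least 1 count in any library 3, 8 and 1 (16.1%, 17.2% and 6.28%), with at least 10 counts in every library 3, 5 and 2 of 11 members left (27.4%, 35.5% and 24.5%), with limma on RPKM 0, 0 and 0 at either pseudocount (0.0339% to 2.84%), with the length and GC trends removed 0, 1 and 0 (13.2%, 8.28% and 0.165%), without both L libraries 22, 24 and 13 (55.4%, 56.4% and 28.9%), and with the library letter as a covariate 5, 8 and 0 (22%, 27.3% and 0%). With only the groups compared the first 2 were 0 and 10 (0.278% and 18.1%), and with trends removed and both L libraries left out, chosen after seeing the data, the counts were 16, 20 and 2 (53.5%, 54.3% and 15.3%). Leaving out 1 library at a time gave 0 to 19, 0 to 23 and 0 to 16. For ethanol in KO mice and KO against WT mice after ethanol the count was 0 in every alternative run. RLE factors gave 4, 14 and 4. Of 2653 log2 fold changes of named members under the alternatives, 167 changed sign, 26 of them with trends removed, 35 with trends removed and L libraries left out, and 53 with 1 library left out. Of those that kept their sign, 252 lost and 84 gained the call. In 4 of the sign changes the value was called in at least 1 of the fits: Prkdc in KO against WT saline (-0.314 with trends removed, -0.458 with L libraries also left out), Prkdc for ethanol in WT mice (-0.602 with both) and Atm in KO against WT saline (-0.017 with both). The cause was not tested. In KO ethanol replicate 12, 3 counts stood for 5.01 CPM, which limits low genes there. No paired analysis was possible because the groups share no replicate numbers.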
